A study of Homo sapiens with 24 samples.

Results

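The FOXO transcription factors FOXO1, FOXO3 and FOXO4 and 7 of their known stress targets (SESN1, SESN3, IRS2, CITED2, CCNG2, DDIT4 and PIK3IP1) are described here in 3 human acute myeloid leukemia lines given cyclocreatine. The 10 genes were taken by symbol from the gene column of the deposited count tables, and all 10 were found among the 25728 symbols there. All 10 also passed the filter on low counts that left 14588 genes for testing. The design text calls all 3 lines, TF-1, UT-7 and also UCSD-AML1, EVI1-driven, EVI1 being a transcription factor encoded by MECOM. TF-1 comes from an erythroleukemia and UT-7 from a megakaryoblastic leukemia, and UCSD-AML1 is a leukemia line with a chromosome 3 rearrangement. Each line was exposed for 24 h to 3 mM cyclocreatine, a creatine analog that creatine kinases phosphorylate, or was left in vehicle, with 4 libraries in each of the 6 groups. The labels name no other agent or genetic change in any group.

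FOXO proteins bind DNA through a forkhead domain and switch on genes that slow growth, clear damaged components and buffer oxidants. Growth factors act through PI3K and AKT to phosphorylate them, 14-3-3 proteins then hold them in the cytoplasm, and the factors return to the nucleus when AKT signalling drops or when stress kinases act on them. In blood they keep stem cells quiescent and limit reactive oxygen. FOXO activity is thus set largely by protein modification and location, which RNA levels do not show. Sestrins (SESN1, SESN3) and DDIT4 restrain mTORC1, PIK3IP1 and IRS2 act at PI3K itself, and CCNG2 and CITED2 act on the cell cycle and on the coactivators CBP and p300.

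Promoter sequences are printed for 4 of the targets: CCNG2, which rose in all 3 lines, CITED2 and IRS2, which fell in all 3, and DDIT4, which moved in both directions. Each is the stretch of 250 bases before an annotated start in RefSeq on GRCh38.p14, in the direction of the gene, with the letters that matched a motif in capitals. The windows are chr4:77156957-77157206 on the plus strand for CCNG2, chr6:139374649-139374898 on the minus strand for the outermost start of CITED2, chr10:72273674-72273923 on the plus strand for DDIT4 and chr13:109786584-109786833 on the minus strand for IRS2.
CCNG2: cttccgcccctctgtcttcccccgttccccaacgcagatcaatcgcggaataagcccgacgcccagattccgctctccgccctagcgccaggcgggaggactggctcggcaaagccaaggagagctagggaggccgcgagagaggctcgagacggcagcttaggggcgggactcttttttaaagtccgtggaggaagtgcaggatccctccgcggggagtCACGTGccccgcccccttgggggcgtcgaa
CITED2: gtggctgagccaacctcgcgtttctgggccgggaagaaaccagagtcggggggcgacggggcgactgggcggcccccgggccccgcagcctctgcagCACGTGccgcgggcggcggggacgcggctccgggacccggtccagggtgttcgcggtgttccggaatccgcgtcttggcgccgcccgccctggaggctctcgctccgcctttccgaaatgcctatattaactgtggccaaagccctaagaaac
DDIT4: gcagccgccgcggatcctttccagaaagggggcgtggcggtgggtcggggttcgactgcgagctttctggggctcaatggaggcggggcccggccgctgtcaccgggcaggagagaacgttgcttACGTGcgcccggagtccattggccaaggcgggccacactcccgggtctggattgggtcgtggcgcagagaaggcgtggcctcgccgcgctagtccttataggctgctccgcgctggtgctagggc
IRS2: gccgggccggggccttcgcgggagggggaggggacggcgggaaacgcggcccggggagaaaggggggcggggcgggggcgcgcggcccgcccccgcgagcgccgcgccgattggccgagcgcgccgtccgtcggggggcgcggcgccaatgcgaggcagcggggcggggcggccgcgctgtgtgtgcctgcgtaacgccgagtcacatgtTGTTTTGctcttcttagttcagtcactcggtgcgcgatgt
The capitals mark CACGTG in CCNG2 and CITED2, ACGTG in DDIT4 and TGTTTTG in IRS2. Motifs were searched on both strands in all 18 windows that RefSeq gives for the 10 genes. The 4 printed windows are among those with a match. None of the windows of SESN1, which also rose in all 3 lines, held a searched motif. The same was true of the SESN3 window and of the other starts of CITED2. The forkhead site TGTTTAC was in 0 of the 18 windows and in 2.98% of the 35116 windows of all genes. The insulin response core TGTTTTG was in 1 of the 18 windows, that of IRS2, at 40 to 34 bases before the start, and in 4.3% of all windows. The hypoxia response core ACGTG was in 4 of the 18 windows (22.2%) and in 18.5% of all windows. It lay 125 to 121 bases before the start of DDIT4, between 30 and 25 bases before that of CCNG2, between 153 and 148 bases before that of CITED2, and at 219 to 215 and 37 to 33 bases before the third start of FOXO3. In CCNG2 and CITED2 it was part of CACGTG, the E-box read by MYC and related factors, which holds ACGTG on both strands and was in 6.34% of all windows. The composite site TGATGNAA of CCAAT-enhancer and ATF factors was in 0 of the 18 windows and in 3.14% of all. The letters describe these windows only. FOXO sites further away would not be seen here.

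Library totals ran from 12794998 to 21200662 counts, and 16086 to 17102 symbols had a count in a library. Levels are given as CPM, read counts put on a shared library scale with TMM factors, with mean ± SD over n = 4 libraries. Fold changes are log2 values ± SE from edgeR's quasi-likelihood test, set as cyclocreatine over vehicle, and p-values are adjusted by Benjamini-Hochberg over all 14588 genes and called under 0.05. Whether the 4 libraries of each group stem from different cultures is not stated in the labels, so these p-values measure the spread between libraries, which may be technical. RNA came from whole cultures, in which fewer cells expressing a gene and less RNA per cell cannot be told apart. All 10 blood progenitor markers examined were at 1 CPM or more in each line. Their summed level was 2493 to 2589 CPM under cyclocreatine and 2398 to 2440 CPM in vehicle in TF-1, 4011 to 4092 CPM under cyclocreatine and 4329 to 4389 CPM in vehicle in UT-7, and 2480 to 2519 CPM under cyclocreatine and 2421 to 2504 CPM in vehicle in UCSD-AML1, so that it moved with treatment without overlap in TF-1 and UT-7. MS4A1, which marks B cells, was at 0 in all 3 lines. CD79A, a gene of the B cell receptor, stood at 39.08 CPM over the UCSD-AML1 libraries, and the 7 lymphoid markers summed to 50.68 to 56.35 CPM in its cyclocreatine libraries and 52.77 to 58.87 CPM in its vehicle libraries. Their sums were 3.914 to 5.57 CPM under cyclocreatine and 4.089 to 5.376 CPM in vehicle in TF-1, and 1.422 to 1.774 CPM under cyclocreatine and 0.9658 to 1.492 CPM in vehicle in UT-7. The 7 stromal and epithelial markers summed to 3.355 to 4.367 CPM under cyclocreatine and 1.142 to 3.055 CPM in vehicle in TF-1, to 2.116 to 2.431 CPM under cyclocreatine and 1.564 to 1.994 CPM in vehicle in UCSD-AML1, and to at most 0.6489 CPM in UT-7. The part of these marker levels in the results was not tested. The TF-1 cyclocreatine replicate 1 library stood apart: ribosomal protein genes held 10.39% of its counts, against 8.596% to 8.646% in the other 3 TF-1 cyclocreatine libraries and 6.426% to 6.712% in TF-1 vehicle. In the other lines the same share was 6.936% to 7.51% under cyclocreatine and 5.947% to 6.187% in vehicle (UT-7), and 7.167% to 7.378% under cyclocreatine and 6.035% to 6.265% in vehicle (UCSD-AML1). Its part in the results was not tested beyond leaving the library out, and values without it are given where a call changed or a count moved by over 1.5 times.

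CCNG2 and SESN1 rose and CITED2 and IRS2 fell under cyclocreatine in all 3 lines, DDIT4 moved in both directions, and the other 5 genes were called in 1 or 2 of the lines. In TF-1, 2 of the 10 genes rose and 4 fell, where 26.7% of all tested genes rose and 29.3% fell, 56.0% in all. In UT-7, 5 rose and 4 fell, where 22.5% of all genes rose and 23.3% fell, 45.9% in all. In UCSD-AML1, 5 rose and 2 fell, where 19.1% of all genes rose and 21.3% fell, 40.5% in all. The share called in TF-1 was thus near that of all genes, and it was above it in UT-7 and UCSD-AML1. The 10 genes were chosen with earlier results of these data known, so these shares do not test whether the genes stand out. Without the TF-1 cyclocreatine replicate 1 library, 4 of the 10 rose and 4 fell in TF-1, because FOXO1 (0.28, adjusted p = 0.0175) and SESN3 (0.26, adjusted p = 0.00025) then passed. The other called genes of TF-1 kept their calls without it, with changes of -0.41 for FOXO3, -0.32 for IRS2, -0.51 for CITED2, 0.23 for SESN1, 0.56 for CCNG2 and -0.28 for DDIT4. The count that rose was also 4 without TF-1 vehicle replicate 4. With library totals in place of TMM, 3001 of all genes rose and 5225 fell in TF-1, where 3901 rose and 4272 fell with TMM, and the 10 genes kept their counts of 2 and 4. Of all tested genes, 8.76% rose in all 3 lines and 8.97% fell in all 3. The median change of the 10 genes was -0.01 in TF-1, against -0.01 for all tested genes. In UT-7 it was 0.25, and in UCSD-AML1 0.13, against 0.00 and 0.00 for all tested genes. The median size of the change, without its sign, was 0.21, 0.41 and 0.35 for the 10 genes and 0.28, 0.24 and 0.20 for all.

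**Figure D1:**
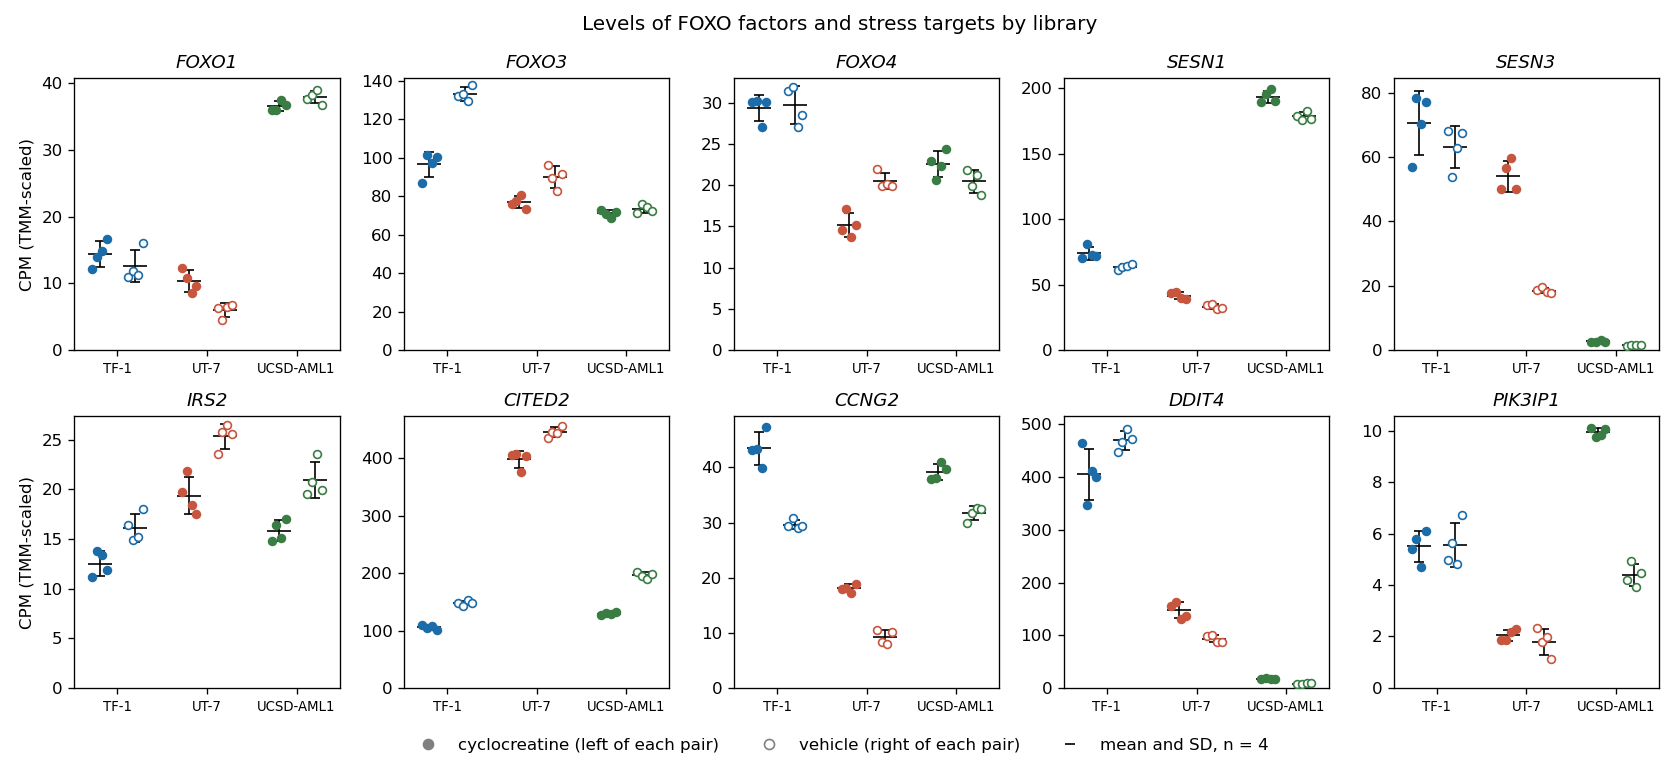
CPM (TMM-scaled, linear axis starting at 0) of each of the 10 genes in every library, with cyclocreatine libraries as filled points left of the vehicle libraries as open points in each line, and bars for the mean and SD of 4 libraries. DDIT4 and SESN3 spread over the widest range of levels between lines, while IRS2 lies lower under cyclocreatine in each line by a like step.

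Of the 3 FOXO factors, FOXO3 fell in TF-1 and UT-7, FOXO1 rose in UT-7 and FOXO4 fell in UT-7. FOXO3, the factor with the most counts in every group, had 87.02, 101.6, 97.6 and 100.3 CPM in the TF-1 cyclocreatine libraries, against 132.3, 133.1, 129.6 and 137.9 CPM in TF-1 vehicle. All 4 treated libraries lay below all 4 vehicle libraries, and FOXO3 fell by 0.46 ± 0.05 on the log2 scale (adjusted p = 7.64e-11). In UT-7 it had 75.82, 77.42, 80.89 and 73.65 CPM under cyclocreatine, against 96.27, 89.54, 82.94 and 91.88 CPM in vehicle. These groups did not overlap either, and FOXO3 fell by 0.23 ± 0.05 (adjusted p = 0.000184). In UCSD-AML1 it averaged 71.12 ± 1.786 CPM under cyclocreatine and 73.57 ± 2.021 CPM in vehicle, a change of -0.05 with a 95% interval of -0.15 to 0.05 (adjusted p = 0.474), and the groups overlapped. FOXO3B, a near-identical copy whose reads can be split from FOXO3 only in part, held 75 counts in TF-1 cyclocreatine, 149 in TF-1 vehicle, 64 in UT-7 cyclocreatine, 144 in UT-7 vehicle and 3 in each UCSD-AML1 group. That is at most 2.693% of the counts of both genes. Adding its counts to FOXO3 left the calls in the 3 lines as they were.

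FOXO1, the factor studied most in insulin signalling, rose in UT-7, and its response there differed from that in both other lines. Its UT-7 levels were 12.31, 10.87, 8.579 and 9.668 CPM under cyclocreatine, against 6.273, 4.484, 6.473 and 6.712 CPM in vehicle. Every treated library was above every vehicle library, and the change was 0.79 ± 0.14 on the log2 scale, 1.73-fold (adjusted p = 7.3e-06). In TF-1, FOXO1 had 12.15 to 16.67 CPM under cyclocreatine and 10.99 to 16.11 CPM in vehicle, a change of 0.20 ± 0.11 (adjusted p = 0.115, 95% interval -0.01 to 0.42). The groups overlapped. Leaving out the highest vehicle library, replicate 4, gave a change of 0.35 that passed (adjusted p = 0.00603). In UCSD-AML1 its level was 36.01 to 37.48 CPM under cyclocreatine and 36.76 to 38.97 CPM in vehicle (-0.05 ± 0.09, adjusted p = 0.694, 95% interval -0.23 to 0.12). LINC00598, which overlaps FOXO1 on the same strand, reached at most 6 counts in a library.

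FOXO4, the X-linked factor, fell in UT-7. Its levels there were 14.54, 17.12, 13.77 and 15.14 CPM under cyclocreatine, against 21.92, 19.94, 20.18 and 19.84 CPM in vehicle. The groups did not overlap, and the change was -0.44 ± 0.08 (adjusted p = 2.95e-05). In TF-1 it averaged 29.36 ± 1.537 CPM under cyclocreatine and 29.71 ± 2.32 CPM in vehicle, with a 95% interval of the log2 change of -0.15 to 0.12 (adjusted p = 0.891). In UCSD-AML1 it averaged 22.58 ± 1.538 CPM under cyclocreatine and 20.46 ± 1.399 CPM in vehicle (0.14 ± 0.08, adjusted p = 0.148). That value passed narrowly when the 8 libraries of the line were fitted alone (0.15, adjusted p = 0.0481).

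Set per kilobase of annotated exon, the make-up of FOXO RNA shifted within UT-7 and TF-1. FOXO6, the brain-enriched member of the family, was included here as the remaining FOXO gene and was named after its values were seen. The share of FOXO1 in the summed CPM per kilobase of FOXO1, FOXO3, FOXO4 and FOXO6 was 10.72% ± 1.457 under cyclocreatine and 5.446% ± 0.9175 in vehicle in UT-7 (SD, n = 4), and the groups did not overlap. The UT-7 share of FOXO4 was 27.25% ± 1.796 under cyclocreatine and 32.37% ± 1.024 in vehicle, also without overlap. That of FOXO3 was 59.32% ± 3.314 and 60.9% ± 1.362, with overlap. As parts of the same sum, the shares do not move independently. In TF-1 the share of FOXO3 was 33.26% ± 2.856 under cyclocreatine and 42.36% ± 1.31 in vehicle, again without overlap. FOXO6 held 36.46% ± 3.769 of the same sum under cyclocreatine and 30.2% ± 1.658 in vehicle in TF-1, without overlap. It held at most 4.1% in any UT-7 library and 0.5662% in any UCSD-AML1 library. Its own level did not pass in TF-1 (20.31 CPM under cyclocreatine and 18.16 CPM in vehicle, adjusted p = 0.182). In UCSD-AML1 FOXO3 held 40.91% ± 1.07 under cyclocreatine and 42.55% ± 1.224 in vehicle, FOXO4 held 30.35% ± 1.309 under cyclocreatine and 27.66% ± 1.378 in vehicle, and FOXO1 held 28.31% ± 0.8822 under cyclocreatine and 29.51% ± 0.2689 in vehicle. Exon lengths were taken from GENCODE 29, which is not the annotation the counts were made on, so the shares and the differences between them are approximate. FOXO6 has only 1476 annotated bases there, against 3301 to 7721 for the other FOXO genes, so the division raises its share most. A FOXO6 length that is too short would overstate its share and understate the others. Before the division, FOXO6 was far below FOXO3 in TF-1 under cyclocreatine (20.31 against 96.63 CPM).

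SESN1, SESN3 and DDIT4 restrain mTORC1, and of these SESN3 and DDIT4 changed most in UT-7 and UCSD-AML1, with responses that differed from TF-1. Sestrins bind the GATOR2 complex and keep mTORC1 inactive when amino acids are scarce, and SESN3 is a direct FOXO target. SESN3 had 50.04, 56.45, 59.62 and 49.91 CPM in UT-7 under cyclocreatine, against 18.54, 19.59, 17.96 and 17.75 CPM in UT-7 vehicle. The 4 treated libraries all lay far above the vehicle libraries, and SESN3 rose 2.92-fold (log2 1.55 ± 0.09, adjusted p = 3.03e-16), the largest change of the 10 genes in any line. In UCSD-AML1 it was scarce, with 2.54, 2.551, 3.231 and 2.57 CPM under cyclocreatine (37 to 50 counts a library), against 1.138, 1.502, 1.656 and 1.728 CPM in vehicle (20 to 26 counts). The groups did not overlap and SESN3 rose by 0.87 ± 0.23 (adjusted p = 0.00269), but with limma-voom the same change had an adjusted p of 0.0551. In TF-1 it had 56.83, 78.35, 70.25 and 76.98 CPM under cyclocreatine, against 68.11, 53.83, 62.8 and 67.39 CPM in vehicle (0.16 ± 0.08, adjusted p = 0.0682). The TF-1 groups overlapped, with the lowest treated value in cyclocreatine replicate 1, and the change passed when that library was left out (0.26, adjusted p = 0.00025), and likewise on omission of vehicle replicate 1 (0.20, adjusted p = 0.0384) or of vehicle replicate 4 (0.20, adjusted p = 0.0455).

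SESN1, a sestrin that p53 also induces, rose in all 3 lines by small steps. In TF-1 it had 70.32, 80.73, 72.75 and 71.69 CPM under cyclocreatine, against 61.4, 63.44, 64.53 and 65.59 CPM in vehicle (0.21 ± 0.05, adjusted p = 0.000248). In UT-7 it had 43.49, 44.26, 39.65 and 39.1 CPM under cyclocreatine, against 34.53, 35.04, 31.16 and 32.07 CPM in vehicle (0.33 ± 0.05, adjusted p = 4.98e-06). In UCSD-AML1, where it was most abundant, it had 189.8, 195.6, 199.1 and 189.9 CPM under cyclocreatine, against 179.1, 175.8, 182.9 and 176.6 CPM in vehicle (0.12 ± 0.04, adjusted p = 0.0271). The treated and vehicle libraries did not overlap in any line. The UCSD-AML1 call was lost without vehicle replicate 1, 2 or 4 or without cyclocreatine replicate 2 or 3, with adjusted p of 0.052, 0.0725, 0.0648, 0.0658 and 0.0886 in that order. SESN2, the remaining sestrin and one of the listed mTORC1 brakes, was added after its values were seen. It averaged 20.92 CPM under cyclocreatine and 23.85 CPM in vehicle in TF-1 (-0.19, adjusted p = 0.0226). It averaged 19.76 CPM under cyclocreatine and 15.59 CPM in vehicle in UT-7 (0.34, adjusted p = 0.000348), and 31.36 CPM under cyclocreatine and 22.93 CPM in vehicle in UCSD-AML1 (0.45, adjusted p = 1.21e-06).

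DDIT4, also called REDD1, releases TSC2 to switch mTORC1 off and is induced by hypoxia, glucocorticoids and energy stress. It was the only one of the 10 genes called in both directions across lines, as were 6.65% of all tested genes. In UCSD-AML1 it had 16.2, 17.98, 16.87 and 16.46 CPM under cyclocreatine, against 8.02, 7.384, 8.485 and 8.642 CPM in vehicle. No treated library came near the vehicle libraries, and DDIT4 rose 2.08-fold (1.06 ± 0.12, adjusted p = 1.66e-07). In UT-7 it had 155.8, 163.5, 131.7 and 137.0 CPM under cyclocreatine, against 99.09, 99.82, 87.89 and 86.89 CPM in vehicle, again without overlap (0.65 ± 0.07, adjusted p = 4.11e-08). In TF-1, the line with the most DDIT4, it had 463.8, 346.3, 411.5 and 399.7 CPM under cyclocreatine, against 448.3, 466.6, 491.3 and 471.6 CPM in vehicle. There it fell by 0.21 ± 0.07 (adjusted p = 0.00797), although cyclocreatine replicate 1 lay among the vehicle libraries. Without that library the change was -0.28 (adjusted p = 0.0008), and without cyclocreatine replicate 2 it was -0.14 (adjusted p = 0.0345). DDIT4-AS1 overlaps DDIT4 on the opposite strand, and no source used here states whether counting used strand.

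**Figure D2:**
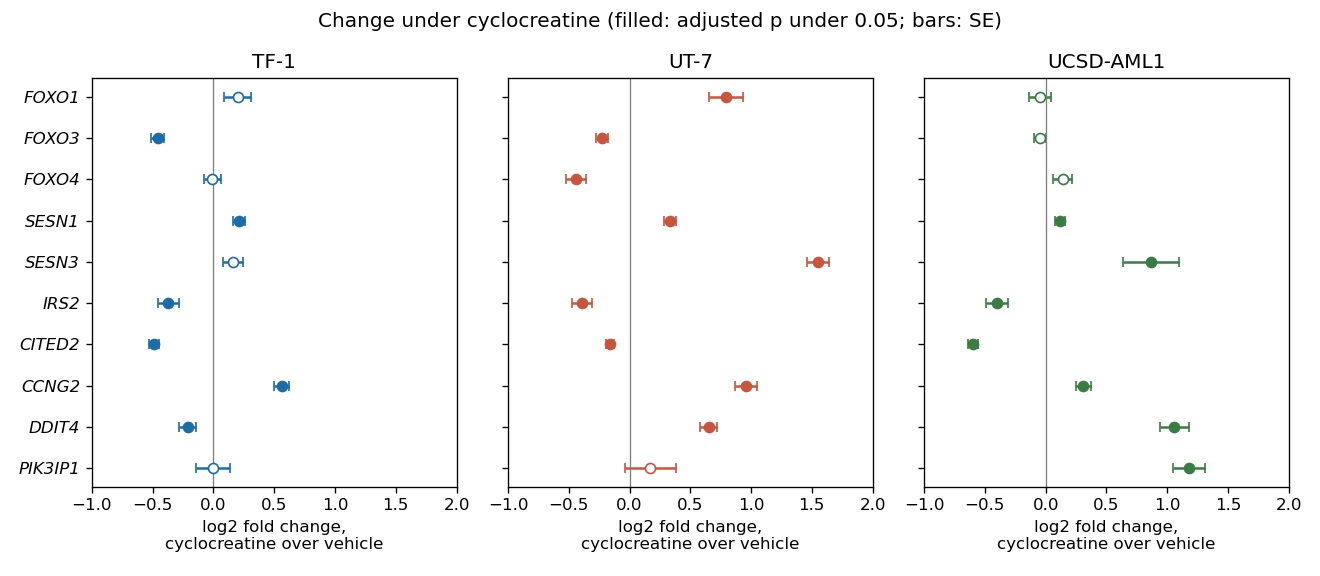
Log2 fold change of cyclocreatine over vehicle for each of the 10 genes in TF-1, UT-7 and UCSD-AML1, with bars for the SE and filled points where the adjusted p was under 0.05. SESN3 in UT-7 (1.55), PIK3IP1 in UCSD-AML1 (1.18) and DDIT4 in UCSD-AML1 (1.06) lie furthest from 0, and IRS2 lies near -0.4 in each panel.

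At PI3K itself, IRS2 fell by nearly the same amount in each line and PIK3IP1 rose in UCSD-AML1. IRS2 is the adaptor that links insulin and cytokine receptors to PI3K, and in mouse liver FOXO1 activates it. It had 11.14, 13.77, 13.35 and 11.83 CPM in TF-1 under cyclocreatine, against 16.42, 14.85, 15.19 and 17.97 CPM in vehicle (-0.37 ± 0.09, adjusted p = 0.000614). In UT-7 it had 19.73, 21.82, 18.46 and 17.49 CPM under cyclocreatine, against 23.54, 25.73, 26.46 and 25.58 CPM in vehicle (-0.39 ± 0.08, adjusted p = 0.000178). In UCSD-AML1 it had 14.8, 16.36, 15.12 and 17.02 CPM under cyclocreatine, against 19.51, 20.77, 23.59 and 19.88 CPM in vehicle (-0.40 ± 0.09, adjusted p = 0.000198). Every treated library was below every vehicle library of its line. Of the 10 genes it was the only one with no called difference in response between any pair of lines, and the 95% intervals of these differences lay within -0.22 and 0.28. PIK3IP1, a membrane protein that inhibits the catalytic subunit of PI3K, had 10.1, 9.769, 9.823 and 10.07 CPM in UCSD-AML1 under cyclocreatine, against 4.209, 4.943, 3.932 and 4.454 CPM in vehicle. The treated libraries were close to one another and all well above vehicle, a rise of 2.26-fold (1.18 ± 0.13, adjusted p = 2.71e-09). In TF-1 it averaged 5.496 ± 0.5986 CPM under cyclocreatine and 5.541 ± 0.8557 CPM in vehicle (0.00 ± 0.14, adjusted p = 0.993, 95% interval -0.27 to 0.26). In UT-7 it averaged 2.04 ± 0.2116 CPM under cyclocreatine and 1.801 ± 0.5062 CPM in vehicle (0.17 ± 0.21, adjusted p = 0.535, 95% interval -0.23 to 0.58). PIK3IP1-AS1, its antisense partner, had at most 6 counts in a library.

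CCNG2 and CITED2 moved in opposite directions in every line. CCNG2 encodes cyclin G2, an unusual cyclin linked to exit from the cell cycle. In TF-1 it had 43.16, 43.34, 39.98 and 47.33 CPM under cyclocreatine, against 29.33, 30.84, 29.02 and 29.35 CPM in vehicle (0.56 ± 0.06, adjusted p = 1.76e-09). In UT-7 it had 18, 18.2, 17.23 and 18.91 CPM under cyclocreatine, against 10.57, 8.416, 7.996 and 10.22 CPM in vehicle (0.96 ± 0.09, adjusted p = 4.54e-12). In UCSD-AML1 it had 37.92, 38.02, 41.04 and 39.8 CPM under cyclocreatine, against 29.98, 31.79, 32.63 and 32.44 CPM in vehicle (0.31 ± 0.06, adjusted p = 0.00017). The groups stood clear of each other in each line. CITED2 binds CBP and p300, competes there with HIF-1, and is needed for blood stem cells in the mouse. In TF-1 it had 110.4, 103.9, 107.4 and 100.3 CPM under cyclocreatine, against 147.3, 143.2, 152.8 and 148.6 CPM in vehicle (-0.49 ± 0.04, adjusted p = 4.34e-14). In UT-7 it had 405.2, 408.3, 376.2 and 404.4 CPM under cyclocreatine, against 434.8, 446.6, 445.0 and 455.8 CPM in vehicle (-0.16 ± 0.03, adjusted p = 0.000155). In UCSD-AML1 it had 126.7, 130.0, 128.7 and 132.7 CPM under cyclocreatine, against 202.1, 194.5, 190.5 and 198.8 CPM in vehicle (-0.60 ± 0.04, adjusted p = 2.15e-16). The treated CITED2 libraries all lay below the vehicle libraries, by the smallest step in UT-7, where the gene was most abundant.

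Counted by libraries, the cyclocreatine and vehicle groups did not overlap for 5 of the 10 genes in TF-1, for 9 in UT-7 and for 7 in UCSD-AML1. Among all tested genes this held for 40.2%, 47.4% and 44.2%. The 5 in TF-1 were FOXO3, SESN1, IRS2, CITED2 and CCNG2, and the 1 gene that overlapped in UT-7 was PIK3IP1.

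**Figure D3:**
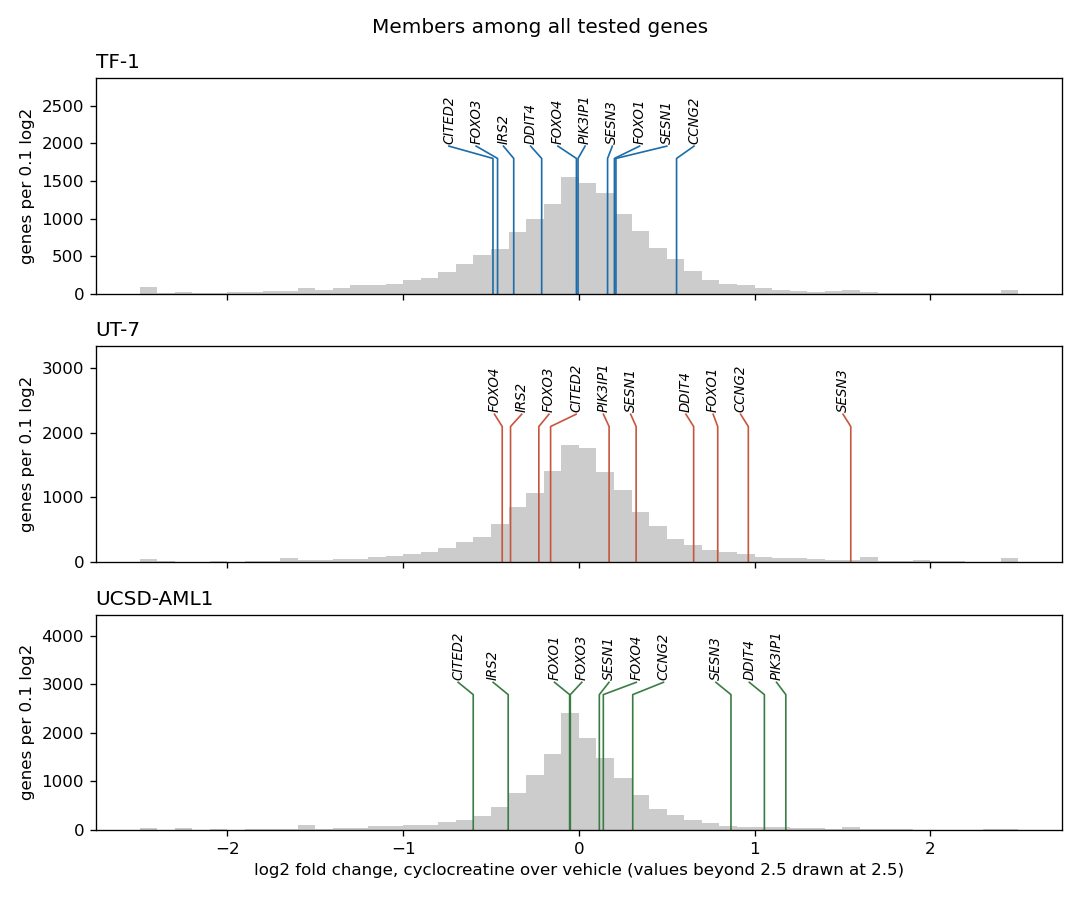
Histogram of the log2 fold change of cyclocreatine over vehicle for all tested genes in each line (grey, genes per bin of 0.1, values beyond 2.5 in size drawn at 2.5), with a line for each of the 10 genes. In TF-1 the 10 genes lie between -0.49 and 0.56. Those at 0.87 or more are SESN3 and CCNG2 in UT-7 and PIK3IP1, DDIT4 and SESN3 in UCSD-AML1.

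The response itself differed in at least 1 pair of lines for 9 of the 10 genes, tested as the difference of the log2 changes in the same edgeR fit. The share of all genes that differed in at least 1 pair is not given, so this count cannot be set against all genes. Between TF-1 and UT-7, 7 of the 10 genes differed, where 27.5% of all genes did. With library totals 1637 of all genes were higher and 2312 lower in this comparison, against 2089 higher and 1922 lower with TMM, and the 10 genes kept their 7 calls. The change in TF-1 was lower than that in UT-7 for SESN3 (difference -1.38 ± 0.12, adjusted p = 8.17e-11), DDIT4 (-0.87 ± 0.10, adjusted p = 3.12e-07), FOXO1 (-0.59 ± 0.17, adjusted p = 0.0103) and CCNG2 (-0.41 ± 0.11, adjusted p = 0.00366). It was also lower for CITED2 (-0.33 ± 0.05, adjusted p = 4.47e-06) and FOXO3 (-0.24 ± 0.07, adjusted p = 0.00799), whose falls were deeper in TF-1. FOXO4 differed the other way (0.42 ± 0.11, adjusted p = 0.00305), as it fell in UT-7 and not detectably in TF-1. Between TF-1 and UCSD-AML1, 5 of the 10 differed, where 29.1% of all genes did. With library totals 1329 of all genes were higher and 2766 lower, against 2156 higher and 2086 lower with TMM, and 4 of the 10 genes were called. The 5 called with TMM were DDIT4 (-1.27 ± 0.14, adjusted p = 1.48e-07), PIK3IP1 (-1.18 ± 0.19, adjusted p = 7.41e-06), FOXO3 (-0.41 ± 0.07, adjusted p = 9.41e-06), SESN3 (-0.70 ± 0.24, adjusted p = 0.028) and CCNG2 (0.25 ± 0.09, adjusted p = 0.0347). The SESN3 value did not pass without UCSD-AML1 vehicle replicate 1 (adjusted p = 0.101) or cyclocreatine replicate 3 (adjusted p = 0.0831), nor with limma-voom (-0.71, adjusted p = 0.157). The CCNG2 value did not pass with library totals (0.18, adjusted p = 0.153) or with no filter on low counts (0.25, adjusted p = 0.0581). Leaving out 1 library, it was also lost without TF-1 vehicle replicate 1, 3 or 4, TF-1 cyclocreatine replicate 4, UCSD-AML1 vehicle replicate 2, 3 or 4, or UCSD-AML1 cyclocreatine replicate 1 or 2 (adjusted p 0.0513 to 0.0879). FOXO1 differed between these lines only without TF-1 vehicle replicate 4 (0.40, adjusted p = 0.0209) or TF-1 cyclocreatine replicate 1 (0.33, adjusted p = 0.0357), and CITED2 only without TF-1 cyclocreatine replicate 4 (0.14, adjusted p = 0.0425).

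Between UT-7 and UCSD-AML1, 7 of the 10 genes differed in response, where 23.0% of all genes did. With library totals 1365 of all genes were higher and 2031 lower, against 1671 higher and 1680 lower with TMM. The change was higher in UT-7 for FOXO1 (difference 0.84 ± 0.16, adjusted p = 0.000126), CCNG2 (0.66 ± 0.11, adjusted p = 1.04e-05), CITED2 (0.44 ± 0.05, adjusted p = 9.01e-09) and SESN1 (0.21 ± 0.07, adjusted p = 0.0247). For PIK3IP1 (-1.01 ± 0.25, adjusted p = 0.00214), FOXO4 (-0.58 ± 0.11, adjusted p = 0.000143) and DDIT4 (-0.40 ± 0.15, adjusted p = 0.0475) it was lower in UT-7. The DDIT4 value kept its call in 12 of 31 alternatives. It was lost without any 1 of the UCSD-AML1 libraries, without UT-7 vehicle replicate 1 or 2, UT-7 cyclocreatine replicate 3 or 4, TF-1 vehicle replicate 2 or 4, or TF-1 cyclocreatine replicate 1, 3 or 4 (adjusted p 0.0533 to 0.113), and also with limma-voom (adjusted p = 0.147) and with no filter on low counts (adjusted p = 0.106). The SESN1 value was lost without UT-7 vehicle replicate 3 or 4 or UT-7 cyclocreatine replicate 1 or 2, with adjusted p of 0.0564 to 0.0808, and with library totals (0.18, adjusted p = 0.062). SESN3 (0.68 ± 0.26, adjusted p = 0.054) and FOXO3 (-0.18 ± 0.07, adjusted p = 0.0582) lay close to the threshold and did not pass in 22 and 24 of 31 alternatives. SESN3 passed without TF-1 vehicle replicate 2, TF-1 cyclocreatine replicate 1 or 2, UT-7 cyclocreatine replicate 1 or 4, UCSD-AML1 vehicle replicate 1 or UCSD-AML1 cyclocreatine replicate 3 (adjusted p 0.0155 to 0.0482), and FOXO3 without TF-1 cyclocreatine replicate 1, UT-7 vehicle replicate 3 or UT-7 cyclocreatine replicate 3 (adjusted p 0.0175 to 0.0409). Both also passed with DESeq2 (adjusted p = 0.0168 for SESN3 and 0.0364 for FOXO3) and when only the groups of the contrast were fitted (adjusted p = 0.00684 for SESN3 and 0.0085 for FOXO3), and FOXO3 passed with library totals (adjusted p = 0.0287) and with the FOXO3B counts added (adjusted p = 0.0362). Comparisons of different pairs share a line, so these counts are not independent of one another.

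In vehicle the lines already differed in most of the 10 genes. DDIT4 had the widest span, at 469.4 ± 17.69 CPM in TF-1, 93.42 ± 6.985 CPM in UT-7 and 8.133 ± 0.565 CPM in UCSD-AML1, and each line differed from each other line (log2 2.33 ± 0.07 for TF-1 over UT-7, 5.85 ± 0.10 for TF-1 over UCSD-AML1 and 3.52 ± 0.10 for UT-7 over UCSD-AML1). SESN3 followed the same order, at 63.03 ± 6.572 CPM in TF-1, 18.46 ± 0.8247 CPM in UT-7 and 1.506 ± 0.2631 CPM in UCSD-AML1, and each step passed. SESN1 ran in another order, at 63.74 ± 1.79 CPM in TF-1, 33.2 ± 1.882 CPM in UT-7 and 178.6 ± 3.177 CPM in UCSD-AML1. FOXO1 was likewise highest in UCSD-AML1, at 37.91 ± 0.9338 CPM, with 12.55 ± 2.407 CPM in TF-1 and 5.985 ± 1.017 CPM in UT-7. TF-1 had the most FOXO3, at 133.2 ± 3.464 CPM, against 90.16 ± 5.564 CPM in UT-7 and 73.57 ± 2.021 CPM in UCSD-AML1, and each of these steps passed.

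FOXO4 was at 29.71 ± 2.32 CPM in TF-1 and was not told apart between UT-7 (20.47 ± 0.9775 CPM) and UCSD-AML1 (20.46 ± 1.399 CPM), with a 95% interval of the log2 difference of -0.15 to 0.15 (adjusted p = 0.995). CITED2 was highest in UT-7, at 445.5 ± 8.599 CPM, against 148.0 ± 3.936 CPM in TF-1 and 196.5 ± 5.053 CPM in UCSD-AML1. IRS2 was also highest in UT-7, at 25.33 ± 1.253 CPM, against 16.11 ± 1.412 CPM in TF-1 and 20.94 ± 1.847 CPM in UCSD-AML1, though single libraries of UT-7 and UCSD-AML1 overlapped. CCNG2 was lowest in UT-7, at 9.3 ± 1.284 CPM, and TF-1 (29.63 ± 0.8209 CPM) and UCSD-AML1 (31.71 ± 1.21 CPM) were not told apart (-0.10 ± 0.07, adjusted p = 0.168). PIK3IP1 had 5.541 ± 0.8557 CPM in TF-1, 1.801 ± 0.5062 CPM in UT-7 and 4.385 ± 0.4292 CPM in UCSD-AML1. Its step between TF-1 and UCSD-AML1 (0.34 ± 0.14, adjusted p = 0.0274) rested on few libraries and was lost with library totals (adjusted p = 0.0519) and without TF-1 vehicle replicate 4 (adjusted p = 0.152), UCSD-AML1 vehicle replicate 1 (0.0652) or UCSD-AML1 vehicle replicate 3 (0.0804). In all, 10, 9 and 9 of the 10 genes were called in the vehicle comparisons of TF-1 with UT-7, TF-1 with UCSD-AML1 and UT-7 with UCSD-AML1, where 79.7%, 84.0% and 81.5% of all genes were, so the share among these genes was not far from that of all genes.

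Among other genes of the route from receptor to AKT, the serine kinase SGK1, an AKT relative that also phosphorylates FOXO3, had the largest rise in TF-1 and UT-7. Largest changes within a list are given here among called genes that averaged at least 5 CPM over the libraries of the line. Many genes named for 1 line were called in the same direction in another line too. A line that is not named was therefore not always without a change. Scarcer genes with a larger called change, named after their values were seen, were SGK1 and GABARAPL1 in UCSD-AML1, FAS and PDK4 in UT-7, and SEPP1, FBXO32, CHAC1, VLDLR and ADM in TF-1. SGK1 averaged 8.172 ± 0.5542 CPM under cyclocreatine and 2.248 ± 0.7818 CPM in vehicle in TF-1 (1.85 ± 0.16, adjusted p = 2.56e-12), and 14.99 ± 1.136 CPM under cyclocreatine and 4.831 ± 0.3928 CPM in vehicle in UT-7 (1.63 ± 0.14, adjusted p = 1.58e-12). PDPK1, the kinase that activates AKT and SGK1, fell in TF-1 to 31.99 ± 2.39 CPM under cyclocreatine, against 48.94 ± 2.782 CPM in vehicle (-0.61). INSR, the insulin receptor, was lower under cyclocreatine in UT-7 (12.37 ± 2.245 against 18.36 ± 0.7496 CPM in vehicle, -0.57) and in UCSD-AML1 (14.09 ± 0.9322 against 19.66 ± 0.9081 CPM in vehicle, -0.48). AKT2 rose in UCSD-AML1 (136.3 ± 4.303 CPM under cyclocreatine and 108.9 ± 3.304 CPM in vehicle, 0.32). It also rose in TF-1 (0.37) and UT-7 (0.28). PDPK1 also fell in UT-7 (-0.44) and UCSD-AML1 (-0.22), and INSR in TF-1 (-0.54). Of the 18 tested genes of the list, 6 rose and 6 fell in TF-1, 8 rose and 6 fell in UT-7, and 4 rose and 6 fell in UCSD-AML1. The list's median change was 0.00, -0.01 and -0.07 for TF-1, UT-7 and UCSD-AML1, and with library totals 3 of its genes rose in TF-1. This list and the others leave out the 10 genes.

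Of 27 other regulators of FOXO proteins (14-3-3 proteins, acetylases, deacetylases, kinases, ubiquitin ligases and competing forkhead factors), 11 rose and 5 fell in TF-1, 10 rose and 6 fell in UT-7, and 4 rose and 5 fell in UCSD-AML1. With library totals 8 fell in TF-1. FOXK2, a forkhead factor that competes for FOXO sites, rose in TF-1 (146.8 ± 7.647 CPM under cyclocreatine and 115.9 ± 4.296 CPM in vehicle, 0.34), where the arginine methylase PRMT6 fell (-0.36). CREBBP, which encodes CBP, rose in UT-7 (215.3 ± 9.782 CPM under cyclocreatine and 150.1 ± 5.975 CPM in vehicle, 0.52), and the acetylase KAT2B fell there (-0.50) while it rose in TF-1 (0.31). YWHAH, the 14-3-3 protein eta, rose in UCSD-AML1 (313.1 ± 7.439 CPM under cyclocreatine and 212.6 ± 8.88 CPM in vehicle, 0.56), and STK3, a kinase of the MST family, fell (-0.44). YWHAH also rose in TF-1 (0.34) and UT-7 (0.28), and STK3 also fell in TF-1 (-0.33). In lines not named above, FOXK2 rose in UCSD-AML1 (0.21), PRMT6 fell in UT-7 (-0.34), CREBBP rose in TF-1 (0.26) and KAT2B fell in UCSD-AML1 (-0.22). The UCSD-AML1 counts were the least settled: 7 rose without TF-1 cyclocreatine replicate 1, and 3 fell without UCSD-AML1 vehicle replicate 3, cyclocreatine replicate 3 or cyclocreatine replicate 4. When only the groups of the contrast were fitted, 8 rose in UCSD-AML1.

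Further FOXO targets, grouped by what they do, moved in both directions. So did all tested genes: 26.7% rose and 29.3% fell in TF-1, 22.5% and 23.3% in UT-7, and 19.1% and 21.3% in UCSD-AML1. Every list count here is to be read beside these shares. Whether a list stands out from all genes was not tested. Of 17 targets of cell cycle arrest, 4 rose and 9 fell in TF-1, 8 rose and 4 fell in UT-7, and 5 rose and 3 fell in UCSD-AML1, with medians of -0.19, 0.27 and 0.10, and with library totals 2 rose in TF-1. Fits of only the groups of the contrast gave 2 that rose in TF-1 and 8 that rose in UCSD-AML1. TXNIP, which binds thioredoxin and curbs glucose uptake, rose in TF-1 (610.7 ± 23.8 CPM under cyclocreatine and 354.0 ± 9.895 CPM in vehicle, 0.79) and in UT-7 (1328 ± 93.79 CPM under cyclocreatine and 532.1 ± 12.01 CPM in vehicle, 1.32). It also rose in UCSD-AML1 (615.2 CPM under cyclocreatine and 271.7 CPM in vehicle, 1.18). TSC22D3, a glucocorticoid-induced leucine zipper gene, rose 4.325-fold in UCSD-AML1 (94.02 ± 4.044 CPM under cyclocreatine and 21.7 ± 0.9856 CPM in vehicle) and was also higher in UT-7 (0.89), while in TF-1 it fell to 5.266 CPM under cyclocreatine, against 10.96 CPM in vehicle (-1.05, adjusted p = 9.56e-12). CDKN1A, the inhibitor p21, fell in TF-1 to 3.871 ± 0.8366 CPM under cyclocreatine, against 8.149 ± 0.8384 CPM in vehicle (-1.07), and the antiproliferative gene BTG2 fell in UT-7 (-0.73) and BTG1 in UCSD-AML1 (-0.36). BTG1 also fell in TF-1 (-0.82) and UT-7 (-0.45), BTG2 in TF-1 (-0.25) and CDKN1A in UT-7 (-0.42).

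More of the antioxidant targets rose than fell: 7 rose and 1 fell of 9 in TF-1, 4 and 1 in UT-7, and 3 and 1 in UCSD-AML1. The gene that fell was SOD2, mitochondrial superoxide dismutase, in each line: 109.1 ± 0.9263 CPM under cyclocreatine and 152.4 ± 7.386 CPM in vehicle in TF-1 (-0.48), 160.7 ± 3.739 CPM under cyclocreatine and 192.8 ± 2.768 CPM in vehicle in UT-7 (-0.26), and 42.5 ± 2.315 CPM under cyclocreatine and 53.15 ± 3.189 CPM in vehicle in UCSD-AML1 (-0.32). Among genes of at least 5 CPM, catalase (CAT) had the largest rise in TF-1 (212.1 ± 9.114 CPM under cyclocreatine and 163.5 ± 7.092 CPM in vehicle, 0.38), the metallothionein MT1X in UT-7 (24.94 ± 2.184 CPM under cyclocreatine and 12.09 ± 1.644 CPM in vehicle, 1.05) and the peroxiredoxin PRDX5 in UCSD-AML1 (129.4 ± 5.115 CPM under cyclocreatine and 99.34 ± 2.044 CPM in vehicle, 0.38). Without TF-1 cyclocreatine replicate 1, or with library totals or limma-voom, 2 genes of the list fell in TF-1. With only the groups of the contrast fitted, 5 rose in UCSD-AML1.

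Of 8 targets of apoptosis, 1 rose and 2 fell in TF-1, and 2 rose and 2 fell in each of the other lines. TNFSF10, the death ligand TRAIL, rose in TF-1 (74.09 ± 3.376 CPM under cyclocreatine and 28.72 ± 0.5599 CPM in vehicle, 1.37) and in UT-7 (16.63 ± 1.089 CPM under cyclocreatine and 6.358 ± 0.3627 CPM in vehicle, 1.39), and BBC3, the BH3-only protein PUMA, in UCSD-AML1 (28.79 ± 1.608 CPM under cyclocreatine and 16.89 ± 1.385 CPM in vehicle, 0.77). BNIP3, a mitophagy receptor that is also a hypoxia target and stands in both lists, fell in UT-7 (-0.70) and UCSD-AML1 (-0.87), and PMAIP1 (NOXA) fell in TF-1 (-0.49). BNIP3 also fell in TF-1 (-0.41), while TNFSF10 also rose in UCSD-AML1 (0.19) and BBC3 in UT-7 (0.38). In TF-1, 2 rose without TF-1 cyclocreatine replicate 1 or with limma-voom, and with library totals 4 fell in UT-7.

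Of 17 targets of autophagy and protein breakdown, 2 rose and 7 fell in TF-1, 4 rose and 2 fell in UT-7, and 4 rose and 3 fell in UCSD-AML1. PINK1, the kinase that marks damaged mitochondria, had the largest rise in each line: 15.38 ± 1.083 CPM under cyclocreatine and 8.473 ± 0.9967 CPM in vehicle in TF-1 (0.87), 26.21 ± 1.687 CPM under cyclocreatine and 13.07 ± 1.052 CPM in vehicle in UT-7 (1.0), and 29.97 ± 1.99 CPM under cyclocreatine and 12.15 ± 1.228 CPM in vehicle in UCSD-AML1 (1.31). GABARAPL1, an ATG8 protein of the autophagosome, fell in TF-1 (-0.70), the autophagy receptor SQSTM1 fell in UT-7 (-0.59) and TF-1 (-0.51), and ATG14 fell in UCSD-AML1 (-0.27) and rose in TF-1 (0.23) and UT-7 (0.21). The rise count in TF-1 was 1 without vehicle replicate 1, vehicle replicate 3 or cyclocreatine replicate 2, and the fall count in UT-7 was 1 without vehicle replicate 1, vehicle replicate 4 or cyclocreatine replicate 1. With library totals 1 rose in TF-1 and 5 fell in UT-7. Fitted on only the groups of the contrast, 1 rose in TF-1 and 4 fell in UT-7. Of 11 metabolic targets only 6 were expressed enough to be tested. Of these, 1 rose and 3 fell in TF-1, 2 rose and 2 fell in UT-7, and 1 rose and 2 fell in UCSD-AML1, with 2 risers in TF-1 without vehicle replicate 4 or cyclocreatine replicate 2 and 1 riser in UT-7 without cyclocreatine replicate 3. With limma-voom 2 rose in TF-1, and when only the groups of the contrast were fitted 1 rose in UT-7. PCK2, the mitochondrial PEP carboxykinase, rose in each line (0.33, 0.46 and 0.41 in TF-1, UT-7 and UCSD-AML1), LPIN1 fell in TF-1 (-0.87) and UCSD-AML1 (-0.39), and the lipase PNPLA2 fell in UT-7 (-0.64). LPIN1 also fell in UT-7 (-0.48), and PNPLA2 in TF-1 (-0.63) and UCSD-AML1 (-0.29).

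Apart from SESN1, SESN3 and DDIT4, 14 genes listed as mTORC1 brakes were tested. EIF4EBP1 and EIF4EBP2 are among them, although mTORC1 acts on their proteins, which do not restrain it. Of the 14, 7 rose and 3 fell in TF-1, 7 rose and 2 fell in UT-7, and 6 rose and 2 fell in UCSD-AML1. EIF4EBP1 was among those that rose in TF-1 (0.35) and UCSD-AML1 (0.26), and EIF4EBP2 in UT-7 (0.29). The list medians were 0.15, 0.21 and 0.18, against -0.01, 0.00 and 0.00 for all genes. NPRL3, a subunit of GATOR1, rose in TF-1 (112.8 ± 7.491 CPM under cyclocreatine and 79.61 ± 2.643 CPM in vehicle, 0.50), DEPTOR, which binds mTOR, rose in UT-7 (101.9 ± 3.055 CPM under cyclocreatine and 55.98 ± 1.72 CPM in vehicle, 0.86), and KPTN, a subunit of KICSTOR, rose in UCSD-AML1 (24.75 ± 1.44 CPM under cyclocreatine and 17.53 ± 1.495 CPM in vehicle, 0.50). NPRL3 also rose in UT-7 (0.35) and UCSD-AML1 (0.41), KPTN in TF-1 (0.47) and UT-7 (0.42), and DEPTOR in TF-1 (0.43). TBC1D7, a subunit of the TSC complex, fell in UT-7 (-0.52) and UCSD-AML1 (-0.44). DEPDC5, of GATOR1, fell in TF-1 (-0.26, adjusted p = 0.00681). That call was lost without TF-1 vehicle replicate 4 and when only the groups of the contrast were fitted (adjusted p at most 0.0699). DEPDC5 also fell in UT-7 (-0.29) and UCSD-AML1 (-0.2). The count of genes that fell was 1 in TF-1 without vehicle replicate 3 or 4, and 1 in UCSD-AML1 without vehicle replicate 1, 2 or 4 or cyclocreatine replicate 3 or 4. In TF-1 it was 0 when only the groups of the contrast were fitted.

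Several of the 10 genes also answer to p53, ATF4 or hypoxia, so lists for these were set beside them. Of 16 p53 targets, 8 rose and 4 fell in TF-1, 6 rose and 4 fell in UT-7, and 6 rose and 1 fell in UCSD-AML1, with medians of 0.26, 0.22 and 0.06. DDB2, a DNA damage sensor, rose in TF-1 (25.99 ± 2.727 CPM under cyclocreatine and 14.56 ± 1.694 CPM in vehicle, 0.84), TP53INP1 rose in UT-7 (131.9 ± 2.911 CPM under cyclocreatine and 70.56 ± 2.48 CPM in vehicle, 0.90), and TP53I3 rose in UCSD-AML1 (16.93 ± 1.196 CPM under cyclocreatine and 10.67 ± 1.087 CPM in vehicle, 0.67). XPC in TF-1 (-0.38), AEN in UT-7 (-0.59) and RRM2B in UCSD-AML1 (-0.37) fell. DDB2 also rose in UT-7 (0.62) and UCSD-AML1 (0.5), and TP53INP1 (0.46) and TP53I3 (0.34) also rose in TF-1. RRM2B also fell in TF-1 (-0.38) and UT-7 (-0.23), XPC in UT-7 (-0.43) and AEN in TF-1 (-0.23). The fall count was 2 in TF-1 without vehicle replicate 3, and 2 in UCSD-AML1 without UCSD-AML1 vehicle replicate 4 or UT-7 cyclocreatine replicate 3 or 4. It was also 2 in each of these lines when only the groups of the contrast were fitted.

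Most genes of the ATF4 list fell in TF-1, where 11 of 13 were lower and 1 was higher (median -0.48). Of all tested genes, 29.3% were lower there. The 13 include ATF4 itself, which did not pass in TF-1 (adjusted p = 0.947) and was among those that rose in UCSD-AML1 (0.23). In UT-7, 4 rose and 3 fell, and in UCSD-AML1 4 rose and 4 fell, with 2 falling without cyclocreatine replicate 3. Among genes of at least 5 CPM, TRIB3, a pseudokinase that binds AKT, had the largest fall in TF-1 (43.2 ± 2.461 CPM under cyclocreatine and 78.48 ± 3.245 CPM in vehicle, -0.86), and ATF5 fell most in UT-7 (-0.63) and UCSD-AML1 (-0.60). DDIT3 (CHOP) had the largest rise of the list in each line: 12.98 ± 2.682 CPM under cyclocreatine and 6.712 ± 1.184 CPM in vehicle in TF-1 (0.96), 25.15 ± 2.625 CPM under cyclocreatine and 14.55 ± 1.79 CPM in vehicle in UT-7 (0.79), and 11.73 ± 0.7316 CPM under cyclocreatine and 5.533 ± 0.371 CPM in vehicle in UCSD-AML1 (1.08). SESN2 is counted in the mTORC1, p53 and ATF4 lists. Of 11 hypoxia targets, 9 fell in TF-1, 5 fell in UT-7 and 6 fell in UCSD-AML1, and 0, 1 and 0 rose, with medians of -0.52, -0.17 and -0.14. At an unadjusted p under 0.05 in edgeR, and with DESeq2 and limma-voom, the numbers that rose in TF-1 and UCSD-AML1 were also 0. EGLN3, an oxygen-sensing hydroxylase, fell in TF-1 (4.716 ± 1.714 CPM under cyclocreatine and 9.081 ± 1.372 CPM in vehicle, -0.92) and UT-7 (4.818 ± 0.6983 CPM under cyclocreatine and 9.483 ± 1.122 CPM in vehicle, -0.98). KDM3A was the gene that rose in UT-7 (0.25), while it fell in TF-1 (-0.20) and UCSD-AML1 (-0.14). In UT-7, 2 rose without cyclocreatine replicate 3 or when only the groups of the contrast were fitted. DDIT4 is itself a hypoxia and ATF4 target, and the part of either route in its changes was not tested.

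**Figure D4:**
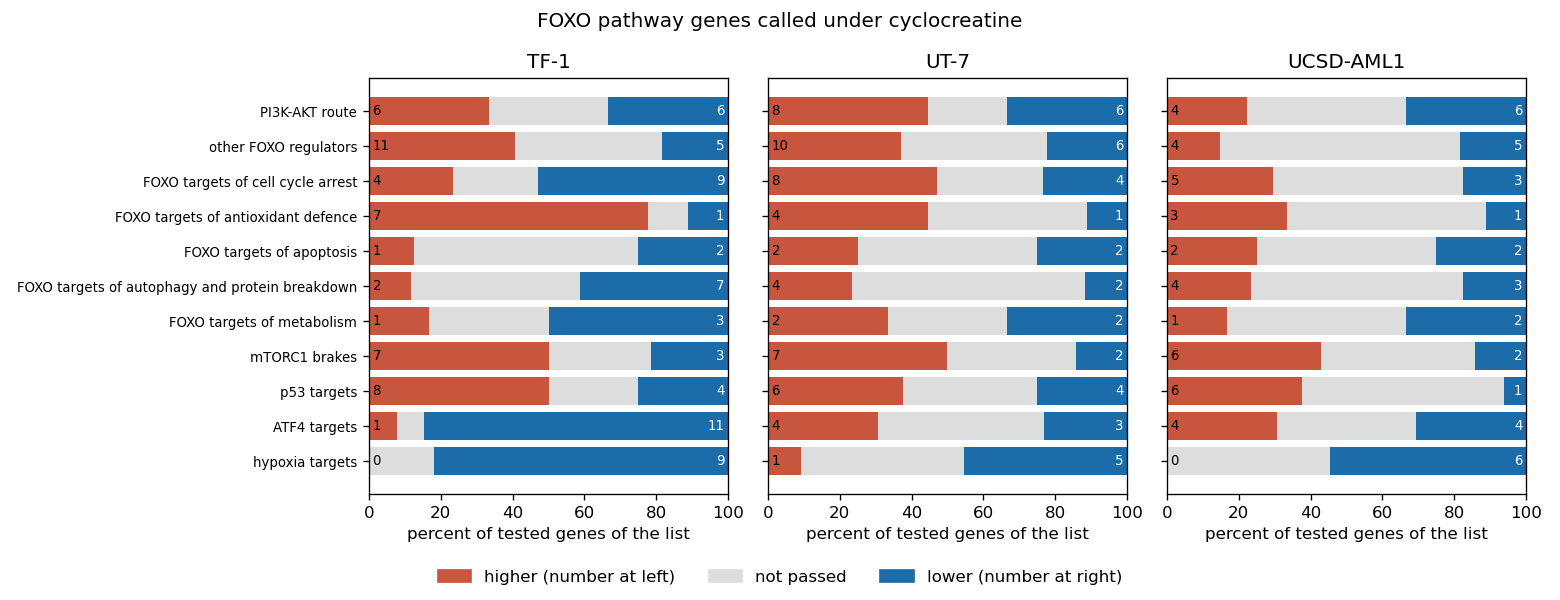
Percent of the tested genes of each list that rose (left, with the number), did not pass (grey) or fell (right, with the number) under cyclocreatine in TF-1, UT-7 and UCSD-AML1, leaving out the 10 genes described here. Hypoxia targets fell more often than they rose in each line, and genes of the ATF4 list, which holds ATF4 itself, did so in TF-1 (11 against 1). Genes of the mTORC1 brake list, EIF4EBP1 and EIF4EBP2 among them, rose more often than they fell in each line.

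Genes whose log2 CPM ran most like each factor over the 24 libraries were taken by Pearson's r among 10718 genes, as a description. For FOXO1 these were PPP1R13B (r = 0.977), ACE (0.977) and JAK1 (0.976). For FOXO3 they were NET1 (0.966), CD2AP (0.962) and ZMIZ2 (0.962), and for FOXO4 LRFN4 (0.944), NETO2 (0.94) and CD151 (0.938). The libraries fall into 3 lines, so these values rest mostly on the differences between lines.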

How the data were processed

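The values the authors deposited are raw counts per RefSeq gene symbol, in 1 file per library. Among tools, FastQC, RSEM and TopHat2 are listed, and among builds hg19 and GRCh37, per the submitters' processing notes. No source used here gives their versions, order or strand setting. Libraries were grouped by their labels. Counts were analysed in R 4.3.3 with edgeR 4.0.16: filterByExpr (smallest count 10, smallest total 15), TMM, and 1 robust quasi-likelihood fit of 6 group means over all 24 libraries, with contrasts for the 3 treatment effects, their 3 differences and the 3 vehicle comparisons. Benjamini-Hochberg adjustment ran over all 14588 genes of a contrast. The SE was taken as the absolute log2 change divided by the root of the F statistic, which is approximate. On simulated counts with 200 of 14397 genes changed per line, the fit recovered 98%, 97% and 96% of 2-fold and 92%, 94% and 90% of 1.5-fold changes in TF-1, UT-7 and UCSD-AML1, with 7, 5 and 7 false calls. The changed genes were drawn from those with a mean of at least 5 CPM over all libraries. In the data 40.5% to 56.0% of genes were called per line, so the rates may not hold for that many changes or for scarcer genes.

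No replicate pair agreed within counting noise: over 36 pairs, chi-square per degree of freedom was 1.286 to 19.29. The alternatives were DESeq2 1.42.0, limma-voom (limma 3.58.1), library totals, no filter on low counts, fits of only the groups of a contrast, replicate blocks, leaving out each library, and a 1.5-fold minimum. Adding FOXO3B to FOXO3, and alternatives other than library totals on gene lists, were chosen after seeing the data. The members and gene lists were chosen with earlier results of these data known. Named from each list were, per line and direction, the called gene with the largest change among those of at least 5 CPM. Promoters are RefSeq's, on GRCh38.p14. The counts follow another build, so no other coordinates are given.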

Additional observations from a re-analysis of the deposited data

Results flagged for a closer look

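In 4 of 60 groups of 4 libraries, 1 library lay far from the other 3 by Dixon's test, which flags about 1 in 20 groups by chance. FOXO4 in TF-1 cyclocreatine replicate 3 was lowest at 27.06 CPM, FOXO4 in UT-7 vehicle replicate 1 was highest at 21.92 CPM, SESN3 in UCSD-AML1 cyclocreatine replicate 3 was highest at 3.231 CPM, and CITED2 in UT-7 cyclocreatine replicate 3 was lowest at 376.2 CPM. Without these libraries the calls of FOXO4 in TF-1 and UT-7, SESN3 in UCSD-AML1 and CITED2 in UT-7 were as reported.

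The response to cyclocreatine differed between 2 lines in 19 of 30 tests, each a test of the difference itself in edgeR with adjusted p under 0.05. Among all tested genes, 27.5% differed between TF-1 and UT-7, 29.1% between TF-1 and UCSD-AML1 and 23.0% between UT-7 and UCSD-AML1. For TF-1 minus UT-7 the log2 differences were -1.38 for SESN3, -0.87 for DDIT4, -0.59 for FOXO1, -0.41 for CCNG2, -0.33 for CITED2, -0.24 for FOXO3 and 0.42 for FOXO4. For TF-1 minus UCSD-AML1 they were -1.27 for DDIT4, -1.18 for PIK3IP1, -0.70 for SESN3, -0.41 for FOXO3 and 0.25 for CCNG2. For UT-7 minus UCSD-AML1 they were -1.01 for PIK3IP1, -0.58 for FOXO4, -0.40 for DDIT4, 0.21 for SESN1, 0.44 for CITED2, 0.66 for CCNG2 and 0.84 for FOXO1. No cause of these differences was tested.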

How the results depend on the processing

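No change of the 10 genes turned its direction while called under any alternative. With at least 1.5-fold required, 0 genes rose and 0 fell in TF-1, 4 rose and 0 fell in UT-7, and 3 rose and 1 fell in UCSD-AML1. At the same minimum 3 response differences were called in each pair of lines, and in vehicle 8 genes were called between TF-1 and UT-7, 5 between TF-1 and UCSD-AML1 and 7 between UT-7 and UCSD-AML1. Shares of all genes at this minimum are not given, so these counts cannot be set against those of all genes. Leaving out 1 library, 2 to 4 genes rose in TF-1, 4 to 5 rose in UCSD-AML1, and 7 to 7, 4 to 6 and 6 to 8 response differences were called (TF-1 with UT-7, TF-1 with UCSD-AML1, UT-7 with UCSD-AML1).

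Of 90 results for single genes, DESeq2 kept 88 calls, limma-voom 87, library totals 85, no filter 88, and fits of only the groups of a contrast 87. Under library totals CCNG2 in vehicle TF-1 over UCSD-AML1 (-0.14, adjusted p = 0.05) passed narrowly and PIK3IP1 in the same comparison did not (0.29, adjusted p = 0.0519), and for these 2 genes the cause was not tested. Same-numbered libraries did not deviate together (12 correlations of -0.124 to 0.081, 1 of 12 highest with its own number), so the numbers pair nothing. With the replicate block, 2 rose and 4 fell in TF-1, 5 rose and 4 fell in UT-7, 5 rose and 2 fell in UCSD-AML1, 7, 5 and 7 response differences and 10, 9 and 9 vehicle differences were called, and all 90 calls were kept. Depth limits SESN3 in UCSD-AML1 (20 to 50 counts) and PIK3IP1 in UT-7 most.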
